A study of Rattus norvegicus with 6 samples.

Results

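The mature miRNAs counted in rat plasma exosomes include 5 that are commonly used as reference miRNAs for circulating RNA, namely rno-miR-191a-5p, rno-miR-425-5p, rno-miR-103-3p, rno-miR-107-3p and rno-miR-186-5p, written below without the species prefix. They were chosen by name from the deposited counts, and all 5 were found among their 763 miRNAs. Plasma exosomes came from male Sprague-Dawley rats aged 7 to 8 weeks. The RIPC-exosome group (R-exo, 3 libraries) came from rats given remote ischemic pre-conditioning (RIPC) under anesthesia and bled 48 h later, in its late phase. RIPC was 4 cycles of 5 min of ischemia of both hind limbs and 5 min of reperfusion. The Control-exosome group (C-exo, 3 libraries) came from rats without RIPC. These were likewise anesthetized and bled, 48 h after a control protocol. Whether these control rats had been anesthetized at the time of the RIPC is not given in the sources used here. The sources used here do not say whether the plasma of several rats was pooled for a library. Exosomes were the final pellet of differential centrifugation, which can also hold other particles, and a miRNA count in it does not name the cell of origin. Fewer vesicles of one source and less miRNA per vesicle cannot be told apart in these libraries.

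A reference miRNA is one whose level is assumed to stay the same between samples, so that other miRNAs can be expressed relative to it in PCR. Each of these miRNAs is made in most cell types from a stem-loop within a protein-coding gene, and acts by guiding Argonaute to transcripts that pair with its seed. By RefSeq's annotation of the rat genome (assembly GRCr8) the miR-191 and miR-425 stem-loops neighbour each other within Dalrd3. The stem-loops that give miR-103-3p lie within Pank3 and Pank2, and that of miR-107 lies within Pank1, genes of pantothenate kinases that begin the synthesis of coenzyme A. The miR-186 stem-loop lies within Zranb2, the gene of a splicing factor.

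The mature sequences are shown because identity between members decides which of them the counting could confuse. They are RefSeq sequences of GRCr8, written 5′ to 3′, with the seed (bases 2 to 8) in capitals.
miR-191a-5p: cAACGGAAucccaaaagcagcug
miR-425-5p: aAUGACACgaucacucccguuga
miR-103-3p: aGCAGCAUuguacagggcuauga
miR-107-3p: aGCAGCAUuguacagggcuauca
miR-186-5p: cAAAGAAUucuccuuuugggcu

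miR-103-3p and miR-107-3p share the seed GCAGCAU, which no other of the 693 mature rat miRNAs in the sequence table has. They differ at 1 of 23 bases, the substitution G22C where the first base is that of miR-103-3p and counting starts with 1 at the 5′ end. A read that ends before base 22, or carries an error there, fits both, so the split of reads between them is uncertain. The other 3 have seeds that no further miRNA of the table shares. miR-191 and miR-425 therefore share a locus but no seed, while miR-103 and miR-107 share a seed but lie in different genes.

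The libraries held between 5484209 and 7531737 counts on miRNAs, and 404 miRNAs passed the filter on low counts, the 5 reference miRNAs among them. C-exo replicates 1 and 2 had 471 and 494 miRNAs with any count. C-exo replicate 3 had 530, and the R-exo libraries had 541 to 544. The 5 together held between 1.40% and 2.62% of the counts of a library. Levels are given as CPM, the count scaled to library size and corrected by edgeR's TMM factors. The Wilson 95% interval of the share of counts was within 7.62% of its value for every reference miRNA in every library, which covers counting error only. For 4 of the 5 reference miRNAs, C-exo replicate 3 was closer to the average of R-exo than to that of the other C-exo libraries. The same held for 331 of all 404 tested (81.9%). The fold changes of the 5 and their spread over both groups together are therefore also given without it.

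miR-191a-5p was the most abundant of the 5 in every library. Replicates 1, 2 and 3 of C-exo had 27538, 11703 and 22798 CPM, and those of R-exo had 17205, 16124 and 11581 CPM. The groups overlapped, since C-exo replicate 2 was nearly as low as the lowest R-exo library. C-exo averaged 20680 ± 8127 CPM, compared with 14970 ± 2984 CPM for R-exo (SD, n = 3 each). The log2 fold change of R-exo over C-exo was -0.47 (standard error 0.44, 95% interval -1.46 to 0.53, Benjamini-Hochberg adjusted p = 0.61 over the 404 miRNAs by the quasi-likelihood test of edgeR). It was -0.23 without C-exo replicate 1, -0.72 without C-exo replicate 2 and -0.38 without C-exo replicate 3.

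miR-425-5p, from the neighbouring stem-loop, varied more. Replicates 1, 2 and 3 of C-exo had 3129, 1688 and 947 CPM, and those of R-exo had 1363, 1276 and 918 CPM. C-exo replicate 1 was far above the rest and C-exo replicate 3 lay within the R-exo range. C-exo averaged 1921 ± 1110 CPM, compared with 1185 ± 236 CPM for R-exo (SD, n = 3 each). The log2 fold change was -0.70 (standard error 0.52, 95% interval -1.86 to 0.46, adjusted p = 0.51 by edgeR). Without C-exo replicate 3 it was -1.01, with an adjusted p = 0.071 by edgeR (0.027 before adjustment, in a fit where 46% of the tested miRNAs were under 0.05 before adjustment), and without C-exo replicate 1 it was -0.25.

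miR-103-3p, which is known for its role in insulin signalling and in lipid metabolism, had 463, 445 and 589 CPM in replicates 1, 2 and 3 of C-exo, and 847, 845 and 567 CPM in those of R-exo. R-exo replicates 1 and 2 were above every C-exo library, but R-exo replicate 3 was just below C-exo replicate 3 with TMM. This overlap depended on the scaling, a check added after the data were seen. With library size only the C-exo values were 376, 494 and 550 CPM and the R-exo values 979, 843 and 583 CPM, so that R-exo lay wholly above C-exo, as it also did with RLE and upper quartile scaling. The groups did not overlap for 13.6%, 12.4% and 12.1% of all tested miRNAs with these 3 scalings. With TMM, C-exo averaged 499 ± 78.7 CPM, compared with 753 ± 161 CPM for R-exo (SD, n = 3 each). The log2 fold change was 0.59 (standard error 0.41, 95% interval -0.34 to 1.52, adjusted p = 0.51 by edgeR). Without C-exo replicate 3 it was 0.74 (adjusted p = 0.17 by edgeR).

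miR-107-3p was the least abundant of the 5 in every library. Replicates 1, 2 and 3 of C-exo had 148, 168 and 220 CPM, and those of R-exo had 267, 333 and 196 CPM. The pattern was that of miR-103-3p, with R-exo replicate 3 again below C-exo replicate 3, except with upper quartile scaling, where R-exo lay wholly above C-exo. C-exo averaged 179 ± 37.2 CPM, compared with 265 ± 68.3 CPM for R-exo (SD, n = 3 each). The log2 fold change was 0.57 (standard error 0.42, 95% interval -0.39 to 1.52, adjusted p = 0.51 by edgeR). Without C-exo replicate 3 it was 0.75 (adjusted p = 0.17 by edgeR), without C-exo replicate 1 it was 0.39 and without R-exo replicate 2 it was 0.37.

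miR-186-5p had 895, 646 and 280 CPM in replicates 1, 2 and 3 of C-exo, and 700, 369 and 392 CPM in those of R-exo. Both its highest and its lowest library were C-exo libraries, so that the R-exo range lay inside the C-exo range. C-exo averaged 607 ± 309 CPM, compared with 487 ± 185 CPM for R-exo (SD, n = 3 each). The log2 fold change was -0.32 (standard error 0.53, 95% interval -1.51 to 0.87, adjusted p = 0.80 by edgeR). It was -0.65 without C-exo replicate 3 and -0.60 without R-exo replicate 1, but -0.031 without C-exo replicate 1 and -0.18 without R-exo replicate 2.

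**Figure D1:**
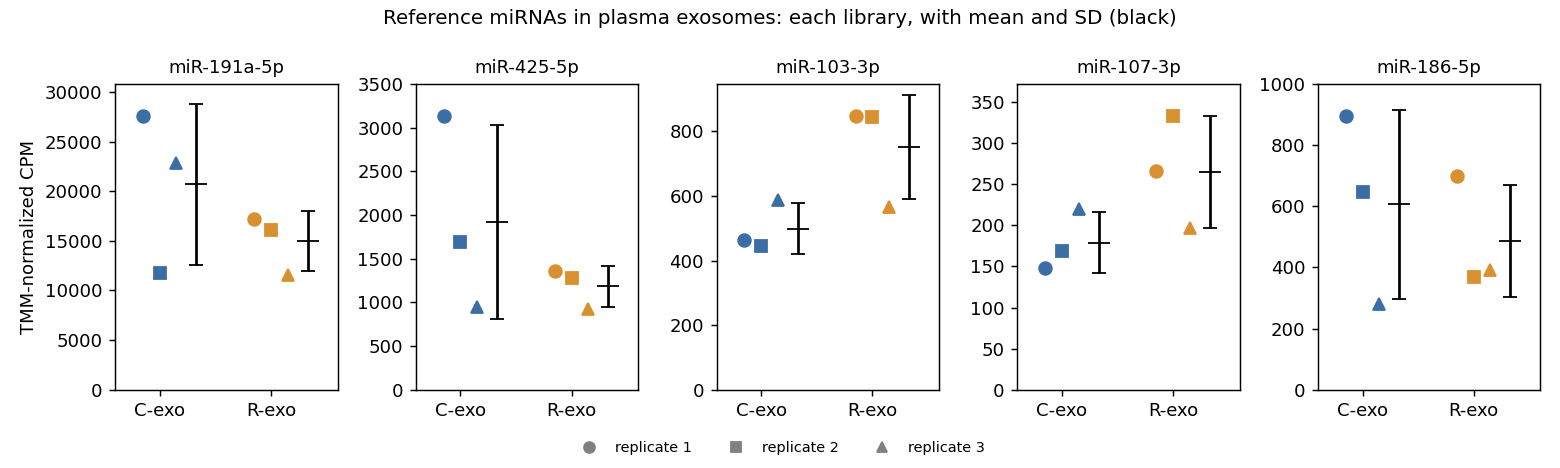
CPM (TMM-normalized, linear axes from 0) of the 5 reference miRNAs in each of the 3 C-exo libraries (blue) and 3 R-exo libraries (orange), with marker shapes for the replicate numbers and the mean and SD of each group in black. With TMM the groups overlap in all 5 panels, whereas those of miR-103-3p do not with the other 3 scalings nor those of miR-107-3p with upper quartile scaling, and miR-425-5p ranges from 918 to 3129 CPM.

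In the edgeR test 0 of the 5 reference miRNAs passed 0.05, whether by adjusted or unadjusted p. Over the 404 tested miRNAs 0% had an adjusted p under 0.05 and 9.41% an unadjusted p under 0.05. Those with a fold over 2 among the latter made up 1.98% higher and 7.43% lower in R-exo, and again held 0 of the 5. This split depended on the scaling and the tool. With TMM 8 were higher and 30 lower, against 12 and 25 with RLE, 11 and 34 with upper quartile scaling, 17 and 32 with DESeq2, 18 and 15 with library size only, and 27 and 22 with limma-voom. With TMM the groups did not overlap in CPM for 12.9% of the tested miRNAs and for 0 of the 5, and R-exo lay wholly above C-exo for 4.95%. With library size only they did not overlap for 13.6% of the tested miRNAs and for 1 of the 5, miR-103-3p. With RLE these were 12.4% and 1 of the 5, again miR-103-3p, and with upper quartile scaling 12.1% and 2 of the 5, miR-103-3p and miR-107-3p. With TMM the exact two-sided permutation p of the difference in mean CPM was 0.2 for miR-103-3p and miR-107-3p, 0.3 for miR-191a-5p, 0.4 for miR-425-5p and 0.7 for miR-186-5p, where 0.1 is the smallest p that 3 libraries against 3 allow. With library size only it was 0.1 for miR-103-3p. These p-values set the difference between groups against the spread between these libraries. Whether that is a spread between rats is not known, since pooling is not stated.

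The intervals were wide. In fold terms, R-exo over C-exo lay between 0.364 and 1.44 for miR-191a-5p, 0.276 and 1.38 for miR-425-5p, 0.793 and 2.88 for miR-103-3p, 0.766 and 2.87 for miR-107-3p, and 0.351 and 1.83 for miR-186-5p (95% intervals). A 2-fold difference in one direction was within each interval, so equal levels in the groups were not shown for any of the 5. The median absolute log2 fold change was 0.57 over the 5 and 0.63 over all tested miRNAs. Of the estimates, 2 were above 0 and 3 were below, and the direction of each was the same under RLE, library size only and upper quartile scaling, both other filters, DESeq2, limma-voom, the robust fit, the replicate block and each omission of a library. With a single member as the library size some turned, as miR-186-5p was 0.35 with miR-425-5p and miR-107-3p was -0.026 with miR-103-3p as the library size.

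**Figure D2:**
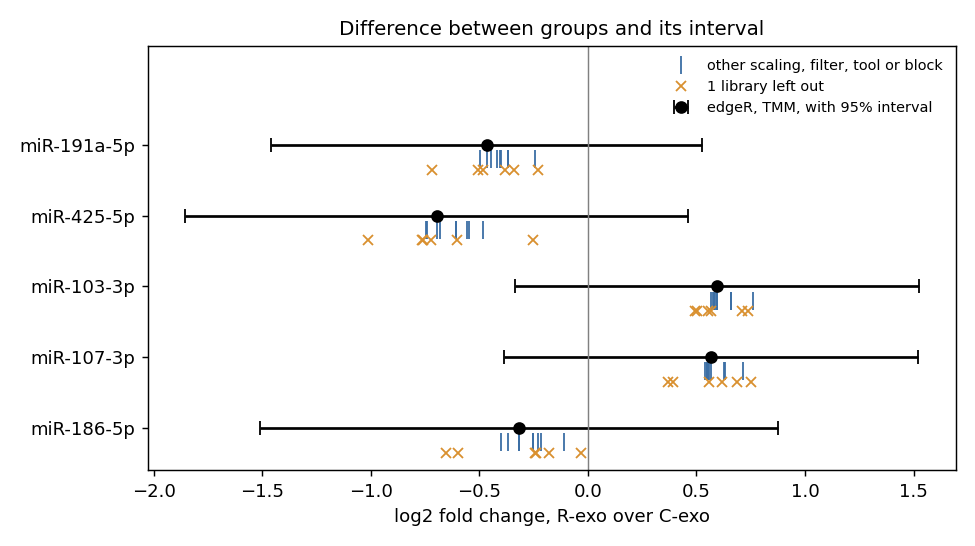
Log2 fold change of R-exo over C-exo for the 5 reference miRNAs from the edgeR fit (black, with 95% interval), under other scalings, filters, tools or the replicate block (blue), and with 1 library left out (orange). All 5 intervals cross 0, miR-103-3p and miR-107-3p lie above 0 at 0.59 and 0.57, and the other 3 lie below.

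Spread over libraries was measured as the SD of log2 CPM (prior count 2). Over all 6 libraries it was 0.41 for miR-103-3p, 0.43 for miR-107-3p, 0.50 for miR-191a-5p, 0.65 for miR-186-5p and 0.65 for miR-425-5p, against a median of 0.74 over the 404 tested miRNAs. With TMM, in order from the smallest spread, these ranked 47, 61, 99, 163 and 167 of 404. The order within the 5 depended on the scaling. With library size only the SD was 0.38 for miR-191a-5p, 0.51 for miR-103-3p and 0.53 for miR-107-3p, and with RLE 0.41, 0.42 and 0.46. The SD of miR-425-5p rested on C-exo replicate 1, without which it was 0.37, the smallest of the 5, beside 0.38 for miR-107-3p, 0.40 for miR-103-3p, 0.41 for miR-191a-5p and 0.56 for miR-186-5p. Without C-exo replicate 3 the SDs were 0.45 for miR-103-3p, 0.48 for miR-107-3p, 0.51 for miR-191a-5p, 0.55 for miR-186-5p and 0.66 for miR-425-5p. Since rare miRNAs scatter more, ranks with TMM were also taken among the 170 miRNAs with a mean of at least 100 CPM, a limit chosen after the data were seen. Those ranks were 25, 32, 51, 82 and 84, where the median SD was 0.66. The ratio of the highest to the lowest library was 1.90 for miR-103-3p, 2.24 for miR-107-3p, 2.38 for miR-191a-5p, 3.19 for miR-186-5p and 3.41 for miR-425-5p.

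Within groups the spread is given with TMM. miR-425-5p, miR-186-5p and miR-191a-5p had an SD of log2 CPM of 0.86, 0.86 and 0.65 in C-exo and of 0.31, 0.51 and 0.31 in R-exo. miR-103-3p and miR-107-3p had 0.22 and 0.29 in C-exo and 0.33 and 0.38 in R-exo. The SD was larger in C-exo than in R-exo for 3 of the 5, and for 333 of the 404 tested miRNAs (82.4%). The C-exo values include C-exo replicate 3 and were not taken without it. For miR-186-5p that library had 280 CPM, beside 895 and 646 CPM in C-exo replicates 1 and 2. Among the C-exo libraries miR-103-3p ranked 23 and miR-107-3p 35 of 404 in steadiness, whereas miR-425-5p and miR-186-5p ranked 214 and 215. Among the R-exo libraries the ranks of the 5 were 149 for miR-425-5p, 151 for miR-191a-5p, 169 for miR-103-3p, 199 for miR-107-3p and 265 for miR-186-5p. Of the 5, miR-103-3p and miR-107-3p had the smallest SD in C-exo, and miR-425-5p and miR-191a-5p in R-exo.

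Beside a list of 20 other miRNAs that are used as reference candidates for plasma, the 5 took places 6 (miR-103-3p), 8 (miR-107-3p), 11 (miR-191a-5p), 15 (miR-186-5p) and 16 (miR-425-5p) of 25 by SD over the 6 libraries with TMM. With library size only their places were 9, 11, 6, 17 and 13 in the same order of names, so that miR-191a-5p came before miR-103-3p and miR-107-3p. With TMM the smallest were 0.099 for miR-24-3p and 0.18 for miR-222-3p. miR-24-3p ranked 1 of all 404 tested miRNAs with TMM, ahead of miR-192-5p with 0.11 and miR-3586-3p with 0.12, the last at a mean of 3.23 CPM. The largest was 1.54 for miR-16-5p, a common plasma reference that is abundant in red cells, with 90.1, 73.5 and 638 CPM in the 3 replicates of C-exo, and 428, 854 and 629 CPM in those of R-exo. Of the 20, 0 passed 0.05 in the edgeR test by adjusted p and 2 by unadjusted p, near the 9.41% of all tested miRNAs, miR-423-3p and miR-423-5p with log2 fold changes of -1.25 and -1.43. Their median absolute log2 fold change was 0.54.

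**Figure D3:**
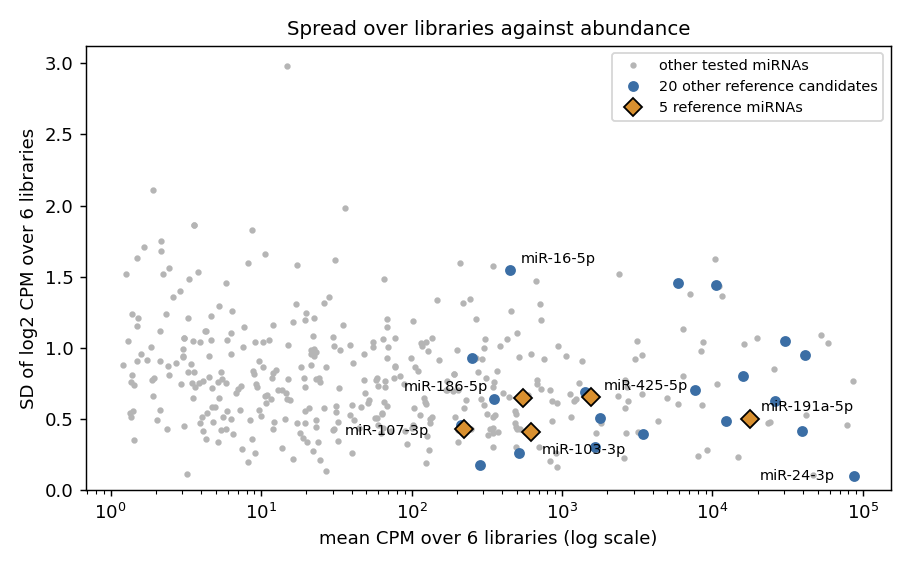
SD of log2 CPM over the 6 libraries against mean CPM (log scale) for the 404 tested miRNAs (grey), with 20 other reference candidates (blue) and the 5 reference miRNAs (orange diamonds). With TMM the 5 lie between 0.41 and 0.65, in an order that changes with the scaling, below the median of 0.74 but well above miR-24-3p at 0.099.

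The ratio of 2 miRNAs within a library does not depend on the scaling, which makes it the stricter view of members that are meant to stand for the same quantity. Over the 6 libraries, miR-103-3p to miR-107-3p was the steadiest of the 10 ratios. Within R-exo its log2 SD of 0.16 was larger than the 0.0011 of miR-191a-5p to miR-425-5p. It was also larger there than the 0.054 of miR-191a-5p to miR-103-3p and the 0.055 of miR-425-5p to miR-103-3p. The count of miR-103-3p was 3.12, 2.64 and 2.67 times that of miR-107-3p in C-exo and 3.17, 2.54 and 2.89 times in R-exo. On the log2 scale the mean was 1.49 ± 0.13 in C-exo and 1.51 ± 0.16 in R-exo (SD, n = 3 each), a difference of 0.028 (exact two-sided permutation p = 0.9, adjusted over 2 ratios 1). The sign of the difference turned with some omissions of a library (-0.048 without R-exo replicate 1). Its SD over the 6 libraries was 0.13, and 0.0626% of the 81406 pairs of tested miRNAs had a smaller one. With 1 base between them, reads may be split between the pair, and the part of such reads in this ratio was not tested.

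miR-191a-5p to miR-425-5p, the pair of one locus, spread widely over the C-exo libraries and hardly over the R-exo libraries, a contrast that was singled out after its values were seen and was not tested. The ratio of counts was 8.80, 6.93 and 24.1 in C-exo and 12.6, 12.6 and 12.6 in R-exo. C-exo replicate 3 stood above all other libraries, with the highest count of miR-191a-5p and the lowest of miR-425-5p. The log2 ratio was 3.51 ± 0.95 in C-exo and 3.66 ± 0.0011 in R-exo (SD, n = 3 each), a difference of 0.15 (exact two-sided permutation p = 1, adjusted over 2 ratios 1). The difference was 0.69 without C-exo replicate 3, but -0.033 without C-exo replicate 1 and -0.21 without C-exo replicate 2. The R-exo SD was below the 0.016 that counting error alone would give for these counts, and of the 14365 pairs of tested miRNAs with a mean of at least 100 CPM, 2 had a smaller SD in R-exo.

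Among the ratios across loci, miR-191a-5p to miR-103-3p was 59.5, 26.3 and 38.7 in C-exo and 20.3, 19.1 and 20.4 in R-exo. miR-191a-5p to miR-107-3p was 186, 69.5 and 103 in C-exo and 64.5, 48.4 and 59.0 in R-exo. For both, every C-exo library was above every R-exo library, with a log2 difference of -0.98 and -0.95. The groups overlapped for the other 8 of the 10 ratios. Over the 81406 pairs of tested miRNAs the groups did not overlap for 13.8%, and for 16.2% of the pairs with a mean of at least 100 CPM, so that 2 of 10 was near the background.

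With all 6 libraries, miR-425-5p to miR-103-3p had the widest difference between groups, a log2 difference of -1.13. C-exo replicate 1 lay furthest from R-exo, and the differences of these ratios were not ranked without it. Its ratio was 6.76, 3.80 and 1.61 in C-exo and 1.61, 1.51 and 1.62 in R-exo. C-exo replicate 3 was within the R-exo values, and the other C-exo libraries were above them. miR-425-5p to miR-186-5p was the second steadiest ratio, with an SD over the 6 libraries of 0.35. The mean SD of the ratios of a member with the other 4 was 0.64 for miR-103-3p, 0.68 for miR-191a-5p, 0.68 for miR-107-3p, 0.71 for miR-425-5p and 0.72 for miR-186-5p. Within C-exo these means were between 0.71 and 0.89, and within R-exo between 0.17 and 0.49. The median SD over the 6 libraries was 0.91 over the pairs of miRNAs with a mean of at least 100 CPM, as all 5 have, and 1.06 over all pairs of tested miRNAs.

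**Figure D4:**
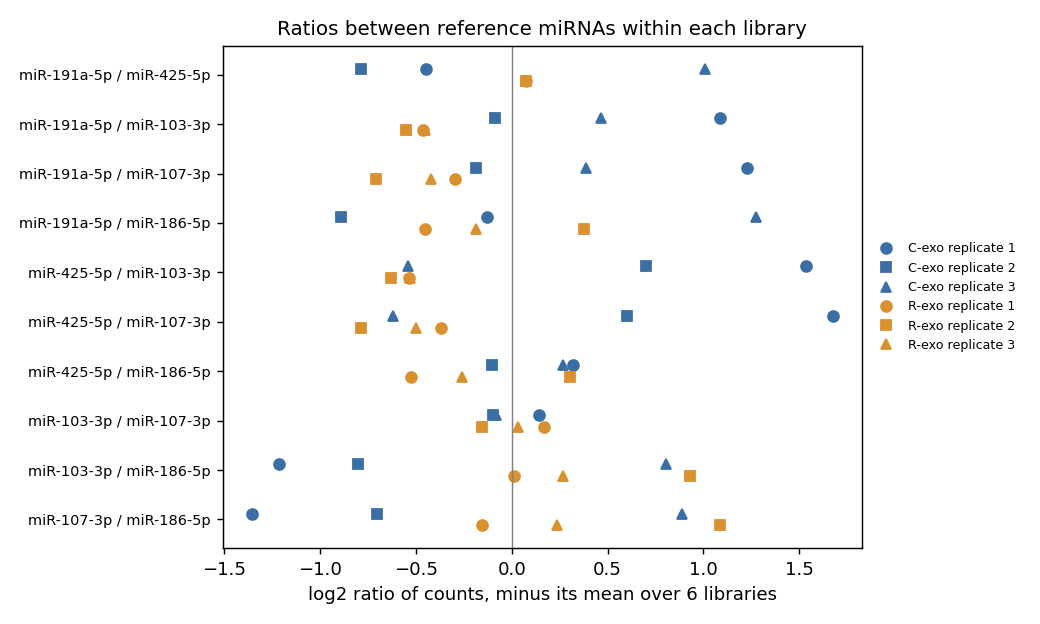
Log2 ratio of counts within each library for the 10 pairs of reference miRNAs, each centred on its mean over 6 libraries, with C-exo libraries in blue and R-exo libraries in orange and marker shapes for replicate numbers. The R-exo points of miR-191a-5p / miR-425-5p coincide, the points of miR-103-3p / miR-107-3p lie close together, and most other pairs spread widely over the C-exo libraries.

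To show what each member would give as the reference, its counts were used as the size of each library in the same edgeR fit. Such a choice moves the fold changes of all miRNAs together, so the values in part restate the fold changes of the members. Compared with TMM, the median of all tested miRNAs moved by about the member's own fold change with miR-103-3p and miR-107-3p. It moved by less than that with miR-191a-5p, miR-425-5p and miR-186-5p. The geometric mean of the 5 balanced their directions, with a mean log2 CPM of 10.10 ± 0.30 in C-exo and 10.09 ± 0.31 in R-exo (SD, n = 3 each). With it the median log2 fold change of all tested miRNAs was -0.059, against -0.046 with TMM and 0.10 with library size only. Single members, an alternative chosen after the data were seen, moved it further. The median was 0.28 with miR-191a-5p and 0.29 with miR-425-5p, -0.61 with miR-103-3p and -0.58 with miR-107-3p, and -0.023 with miR-186-5p. By the rule of a fold over 2 with p under 0.05 before adjustment, which with TMM called 8 higher and 30 lower in R-exo, miR-191a-5p as the reference gave 34 higher and 3 lower. With miR-103-3p as the reference 0 were higher and 98 lower, and with miR-425-5p 5 were higher and 1 lower. No miRNA had an adjusted p under 0.05 with any of the 5 as the reference by edgeR, and the number with p under 0.05 before adjustment was between 6 and 98.

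The opposite arms of the stem-loops were less abundant than their partners. miR-191a-3p, at a mean of 275 CPM over the 6 libraries, was in the range of miR-107-3p at 222 CPM, being higher than it in each C-exo library and lower in each R-exo library. The list held 7 names, of which 2 passed the filter and 4 were at 0 counts in every library. The detected arms are shown for comparison with the guide arms above, again with the seed in capitals.
miR-191a-3p: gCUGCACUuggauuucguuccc
miR-425-3p: aUCGGGAAuaucguguccgcc

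miR-191a-3p had 2385, 1913 and 2357 counts in C-exo, against 797, 1809 and 1343 in R-exo, which is 535, 245 and 335 CPM against 98.1, 260 and 177 CPM. The groups overlapped in CPM, since R-exo replicate 2 was above C-exo replicate 2. R-exo over C-exo came to -1.06 on the log2 scale (standard error 0.51, adjusted p = 0.47 by edgeR, 0.068 before adjustment). The count of miR-191a-5p was 51.5, 47.8 and 68.0 times that of miR-191a-3p in C-exo and 175, 62.1 and 65.4 times in R-exo, so that R-exo replicate 1 stood apart. The exact two-sided permutation p of this log2 ratio was 0.3 (adjusted over 2 ratios 0.4).

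miR-425-3p had 285, 211 and 289 counts in C-exo and 399, 369 and 270 in R-exo. The log2 fold change of R-exo over C-exo was 0.063 (standard error 0.46, adjusted p = 0.96 by edgeR). miR-425-5p exceeded it 49.0, 62.5 and 23.0 times in C-exo and 27.7, 24.1 and 25.8 times in R-exo (exact two-sided permutation p = 0.4, adjusted over 2 ratios 0.4). C-exo replicate 3 again lay with the R-exo libraries, and the other C-exo libraries were higher.

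miR-103-1-5p, miR-103-2-5p, miR-107-5p and miR-186-3p had 0 counts in all 6 libraries, which allows up to 0.547 CPM in the library with the smallest total and 0.398 CPM in that with the largest, before TMM correction and by counting error only. Against a floor of 3 counts per library, miR-103-3p was at least 688-fold higher than miR-103-2-5p in each library, miR-107-3p at least 221-fold higher than miR-107-5p, and miR-186-5p at least 657-fold higher than miR-186-3p. miR-191b, the remaining name on the list, had 0, 6 and 6 counts in C-exo and 6, 2 and 3 in R-exo.

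For each member, the 2 tested miRNAs outside the 5 with the smallest SD of the log2 ratio to it over the 6 libraries were taken as the most alike. For miR-425-5p these were miR-501-3p (0.15) and miR-3064-5p (0.18), and miR-191a-5p came at place 117 in that order. For miR-191a-5p they were miR-363-5p (0.26) and miR-323-3p (0.28), both rare at 9.94 and 4.77 CPM, and miR-425-5p came at place 83. For miR-103-3p they were miR-130b-3p (0.21) and miR-23b-3p (0.22), with miR-107-3p closer than both (0.13). For miR-107-3p they were miR-130b-3p (0.13) and miR-30c-5p (0.21). For miR-186-5p they were miR-345-5p (0.21) and miR-221-3p (0.25). Over the 6 libraries the members of the shared seed were near neighbours in this measure and those of the shared locus were not, which did not hold within R-exo, where 7.23% of the pairs of miRNAs with a mean of at least 100 CPM had a smaller SD of the ratio than miR-103-3p to miR-107-3p and 0.0139% a smaller one than miR-191a-5p to miR-425-5p.

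The letters AGCAGC near the 5′ end also occur in the miR-15/16 family, and 1.15% of the 693 mature miRNAs hold them in their first 8 bases. All 7 relatives on the list (miR-15a-5p, miR-15b-5p, miR-16-5p, miR-195-5p, miR-322-5p, miR-497-5p and miR-503-5p) were tested. The letters were found in 6 of them, and the sequence of miR-15a-5p was not checked. In the edgeR test 0 of the 7 had an unadjusted p under 0.05, against 9.41% of all tested miRNAs. Their SD of log2 CPM over 6 libraries had a median of 1.18, from 0.78 for miR-497-5p to 1.83 for miR-195-5p, against 0.41 and 0.43 for miR-103-3p and miR-107-3p. Most of the relatives were rarer than these, with means of 8.22 to 24.2 CPM against 626 and 222 CPM. miR-503-5p was also rarer than both, at 118 CPM, and miR-16-5p lay between them at 452 CPM. The difference in spread was not tested, nor was the part of abundance in it.

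Levels of blood cell miRNAs are given beside those of the members for the same libraries. The 4 red cell markers (miR-451-5p, miR-144-3p, miR-144-5p and miR-486) summed to 198092, 92404 and 69280 CPM in the C-exo libraries and to between 44540 and 74966 CPM in R-exo, most of it miR-486. The C-exo libraries had the same order, highest to lowest, in this sum and in the CPM of miR-425-5p and miR-186-5p, but the order of the sum was that of miR-486 alone. Without miR-486 the other 3 markers summed to 2279, 2453 and 4875 CPM in C-exo, the opposite order, and to 3661, 6926 and 2570 CPM in R-exo. The 5 platelet markers, which include miR-24-3p, summed to 95608 to 135017 CPM over C-exo, against 126853 to 147871 CPM over R-exo, most of it miR-24-3p. Without miR-24-3p the other 4 summed to 12252, 14984 and 44677 CPM over C-exo, against 44019, 48459 and 63170 CPM over R-exo, so that C-exo replicate 3 lay within the R-exo values. The 5 leukocyte markers summed to 11460 to 30584 CPM over C-exo, against 18391 to 34695 CPM over R-exo. No marker of these lists was at 0 in any library, and of the 14 markers 0 had an adjusted p under 0.05 by edgeR, with a smallest adjusted p of 0.46. Before adjustment 3 of the 14 were under 0.05, against 9.41% of all tested miRNAs, namely miR-144-3p, miR-144-5p and miR-126a-3p, each with a higher mean in R-exo. The part of blood cells in the levels of the reference miRNAs was not tested.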

How the data were processed

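Small RNA libraries of plasma exosomes (3 C-exo, 3 R-exo) were read on an Illumina HiSeq instrument by the authors, who deposited raw read counts per mature miRNA that were neither normalized nor pooled. The submitters' processing notes name bcl2fastq, BWA and the build rn6. How reads were trimmed, which miRNA database was used and how a read fitting more than 1 miRNA was counted are not given in the sources used here. Groups and replicate numbers came from the labels. All 6 columns were used, and no pair of libraries agreed within sampling noise.

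The analysis used edgeR 4.0.16 under R 4.3.3. filterByExpr (minimum count 10, minimum total 15) kept 404 of 598 miRNAs with any count. TMM scaling and the quasi-likelihood test were used for R-exo against C-exo, with no term besides condition. Standard errors were taken from the fold change and its F, and intervals from the total degrees of freedom. Log2 ratios used a pseudocount of 0.5 and exact permutation tests. Alternatives were RLE, library size only and upper quartile scaling, filters, DESeq2 1.42.0, limma-voom (limma 3.58.1), a robust fit, the replicate block and leaving out each library. The procedure was tested on simulated counts. The 5 members, the lists and the tests were chosen with earlier results of these data known. The text names the 5 members, the opposite arms, the 2 most alike miRNAs of each member, the 3 steadiest miRNAs and members of the lists. Sequences were matched by name for 686 of the 763 miRNAs, and figures were drawn with matplotlib 3.10.9.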

Additional observations from a re-analysis of the deposited data

How the results depend on the processing

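Each of the 5 log2 fold changes kept its direction and an adjusted p above 0.05 under RLE, library size only and upper quartile scaling, the geometric mean of the 5 as library size, both other filters, DESeq2, limma-voom, the robust fit, the replicate block and each omission of a library, and the number of reference miRNAs with an adjusted p under 0.05 stayed 0. Over the 9 of these that used all 6 libraries and no member as library size the log2 fold change ranged from -0.50 to -0.24 for miR-191a-5p, -0.74 to -0.49 for miR-425-5p, 0.57 to 0.76 for miR-103-3p, 0.54 to 0.71 for miR-107-3p and -0.40 to -0.11 for miR-186-5p. After omission of each library the ranges were -0.72 to -0.23, -1.01 to -0.25, 0.49 to 0.74, 0.37 to 0.75 and -0.65 to -0.031. With a library left out, the difference between groups in the log2 ratio of miR-191a-5p to miR-425-5p ranged from -0.21 to 0.69 and that of miR-103-3p to miR-107-3p from -0.048 to 0.11, so neither had a stable direction. The ratio of miR-191a-5p to miR-425-5p turned to -0.033 without C-exo replicate 1 and to -0.21 without C-exo replicate 2. The ratio of miR-103-3p to miR-107-3p turned to -0.015 and -0.0062 without C-exo replicates 2 and 3, and to -0.048 without R-exo replicate 1. The cause was not tested. The SD over libraries of the 5 was between 0.36 and 0.70 under the 3 other scalings.

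Over all tested miRNAs the number with an adjusted p under 0.05 was 0 in the edgeR fit, with 38 at an unadjusted p under 0.05 (50 with DESeq2), and 132 without C-exo replicate 3. At a fold over 2 and an unadjusted p under 0.05, 38 were called, 63 without the filter, and between 15 and 182 with a library left out. miR-107-3p as the library size gave 82 and miR-186-5p gave 7. A paired fit, with replicate as a block, called none of the 5, and over all tested miRNAs 25 higher and 13 lower in R-exo against 8 and 30 without the block. Its log2 fold changes were -0.40 for miR-191a-5p, -0.55 for miR-425-5p, 0.58 for miR-103-3p, 0.56 for miR-107-3p and -0.23 for miR-186-5p. The numbers do not pair the rats, and deviations of same-numbered libraries correlated between -0.28 and 0.33. Leaving out C-exo replicate 3 and scaling to library size gave 144 miRNAs with an adjusted p under 0.05, none of them a reference miRNA. With 3 libraries a group, the intervals of the 5 reached between 0.93 and 1.19 on the log2 scale to either side, which limits the differences that could be detected.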
